A study of Mus musculus with 24 samples.

Results

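The genes described here encode the subunits of oxidative phosphorylation, read by respiratory complex in mouse blood. They were chosen by gene name alone: Ndufa, Ndufb, Ndufc, Ndufs or Ndufv followed by a number, Sdha to Sdhd, and names that begin with Uqcr, Cox4 to Cox8 or Atp5. Of 29742 gene names on the array, 84 matched, represented by 126 probes, of which 55 genes had 1 probe and 29 had more. By complex, 82 of the 84 could be measured: 35 of complex I, 4 of complex II, 8 of complex III, 17 of complex IV and 18 of complex V. Ndufa4 was placed in complex IV, where the protein is now assigned. Atp5s and Atp5sl were kept because of their names, although neither is a structural subunit of ATP synthase, and Atp5c1-ps is a pseudogene whose probe may share signal with Atp5c1. The complex V values below include Atp5s, Atp5sl and Atp5c1-ps. Cox7b2 and Cox8b were too dim to be measured.

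Blood was taken by cardiac puncture from 24 male C57BL/6J mice, 6 in each of 4 groups. Young mice were 2 months old and old mice 21 months old. Each age was either sham-irradiated, called unirradiated here, or given 4 Gy of x-rays to the whole body, with blood collected 24 h later. Globin transcripts were depleted from the RNA, and each sample was hybridised to 1 single-dye Agilent array. The values are the log2 of the background-subtracted spot signal minus the median log2 signal of all spots of that array that are not controls, so 0 is the middle of an array and each unit is a doubling. Levels are given for each gene separately, because the brightness of different probes cannot be compared.

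Oxidative phosphorylation couples the transfer of electrons from NADH and succinate to oxygen with the synthesis of ATP across the inner mitochondrial membrane. Complex I takes electrons from NADH, complex II from succinate, complex III passes them to cytochrome c, complex IV passes them to oxygen, and complex V makes ATP from the proton gradient that complexes I, III and IV build. A few subunits of complexes I, III, IV and V are encoded by mitochondrial DNA, while every gene listed here is nuclear. In blood, lymphocytes and monocytes rely on their mitochondria, neutrophils hold fewer and rely largely on glycolysis, reticulocytes lose theirs as they mature, and mature red cells have none. In whole blood, fewer cells of a type and less RNA per cell cannot be told apart.

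Nuclear genes of oxidative phosphorylation are known for promoters with sites for NRF1, for ETS factors such as GABP and for YY1, so the promoters of the subunits were searched. RefSeq entries on GRCm38.p6 were found for all 84 genes, and 69 of them had a promoter entry, which runs from 250 bases before the start of the gene to 50 bases after it. An NRF1 motif, GCGCANGCG on either strand, was present in 19 of the 69 (27.5%) and in 6.47% of the promoters of all 27025 genes. The ETS motif CCGGAAGT was present in 5 (7.25%, against 4% of all genes), and the YY1 motif AAGATGGC in 10 (14.5%, against 2.88%). At least 1 of these motifs was found in 31 of the 69 (44.9%), against 12.3% of all genes. YY1 motifs lay in 7 of 31 promoters of complex I and 3 of 16 of complex V, and in 0 of those of complexes II, III and IV. The NRF1 motif was found in 8 of 31 promoters of complex I, 2 of 3 of complex II, 2 of 5 of complex III, 1 of 14 of complex IV and 6 of 16 of complex V. The letters TATAAA were present in 7 (10.1%, against 14.2%), and the median GC content was 57.3% against 52.7%. A match describes letters in this window only.

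The 150 bases before the start are shown for 5 genes that the results turn on or that differ in motif content, 5′ to 3′ on the strand of the gene, with NRF1 or ETS motifs in capitals. Sdha (chr13:74350241-74350390, minus strand), the flavoprotein of complex II, holds 3 NRF1 motifs. Uqcr11 (chr10:80406822-80406971, minus strand), an accessory subunit of complex III, holds 1 ETS motif in this stretch. Its full promoter entry also holds an NRF1 motif outside the stretch. Ndufs6 (chr13:73328483-73328632, minus strand), an accessory subunit of complex I, holds 1 NRF1 motif on the opposite strand. Its full promoter entry also holds a YY1 motif outside the stretch. Cox5a (chr9:57521082-57521231, plus strand) and Ndufs8 (chr19:3912775-3912924, minus strand), which had the largest called rise among young mice and the largest called fall of a complex I subunit among old mice, hold none of these motifs in the stretch.
Sdha: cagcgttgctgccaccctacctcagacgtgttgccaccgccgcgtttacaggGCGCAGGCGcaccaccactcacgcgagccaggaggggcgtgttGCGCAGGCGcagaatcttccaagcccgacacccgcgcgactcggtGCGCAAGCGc
Uqcr11: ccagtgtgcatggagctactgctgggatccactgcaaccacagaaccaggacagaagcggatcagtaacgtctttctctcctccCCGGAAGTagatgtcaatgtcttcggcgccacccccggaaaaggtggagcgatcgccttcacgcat
Ndufs6: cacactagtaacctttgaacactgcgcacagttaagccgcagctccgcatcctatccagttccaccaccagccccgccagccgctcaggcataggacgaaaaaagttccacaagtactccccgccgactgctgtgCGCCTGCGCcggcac
Cox5a: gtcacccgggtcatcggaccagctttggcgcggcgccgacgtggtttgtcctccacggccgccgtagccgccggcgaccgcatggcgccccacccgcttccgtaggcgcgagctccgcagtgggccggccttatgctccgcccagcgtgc
Ndufs8: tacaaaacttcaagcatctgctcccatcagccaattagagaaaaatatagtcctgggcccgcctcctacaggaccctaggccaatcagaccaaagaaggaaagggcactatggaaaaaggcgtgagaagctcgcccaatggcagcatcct

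Between 43.9% and 64.4% of the spots of an array were well above background, and the median signal per array lay between 8.66 and 44.8. All slides held 4 arrays of a single age, and the arrays of each age were scanned on a day of their own, so age and slide or scanning day cannot be told apart. Slides 1 and 4 held unirradiated arrays alone, slides 3 and 6 irradiated arrays alone, and slides 2 and 5 held both. At each age the slide with both held unirradiated mice 5 and 6 and irradiated mice 1 and 2. Fits within that slide thus used 4 arrays. Irradiation and slide can therefore be told apart only in part. A gene is called below where p was under 0.005 and the Benjamini-Hochberg adjusted p over all genes tested was under 0.05 in limma's moderated test, two-sided. Genes were tested if at least 1 probe had a significant positive signal and if they differed from their median by 1.5-fold in at least 5 arrays. This second filter removed 6.75% of all genes but 24 of the 82 measured subunit genes (29.3%), which left 58 among 17464 genes tested. The 24 were genes that varied little, among them 9 of complex V (Atp5a1, Atp5c1, Atp5e, Atp5f1, Atp5g2, Atp5h, Atp5j, Atp5j2 and Atp5k) and 4 of complex IV (Cox6a1, Cox7a2, Cox7c and Cox8a).

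A number of irradiated arrays stood apart from the rest of their group. Old irradiated mice 4 and 6 had the lowest median signals of all arrays (8.66 and 8.84), correlated with the other arrays of their group at a median r of 0.83 and with each other at 0.99 over the genes measured. In these arrays the median over 8 erythroid markers was 1.84 and 2.09 above the young unirradiated mean on the log2 scale (-2.25 to -1.11 in the other 4 mice of the group) and the median over monocyte markers was -2.42 and -2.19 (0.71 to 1.14 in the others). Young irradiated mice 2, 4 and 5 and old irradiated mice 2, 3 and 5 carried a high signal of hepatocyte markers, genes of the liver parenchyma that blood cells lack. The hepatocyte median was 7.44, 8.41 and 7.69 above the young unirradiated mean in these young mice, against -1.57 to -1.11 in young irradiated mice 1, 3 and 6. In these old mice it was 6.93, 7.36 and 7.75, against -2.35 to 1.03 in old irradiated mice 1, 4 and 6. Of 10 hepatocyte markers, 5 to 10 were well above background in an array of the young unirradiated, 7 to 10 of the young irradiated, 3 to 4 of the old unirradiated and 5 to 10 of the old irradiated group, and their summed log2 level ranged over 6.45 to 10.74, 6.21 to 14.67, 5.43 to 6.01 and 6.51 to 13.96. Young unirradiated mice 5 and 3 were the highest unirradiated mice, at 4.30 and 1.62. The part of these signals in the results below was not tested, and results are also given without these arrays.

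**Figure D1:**
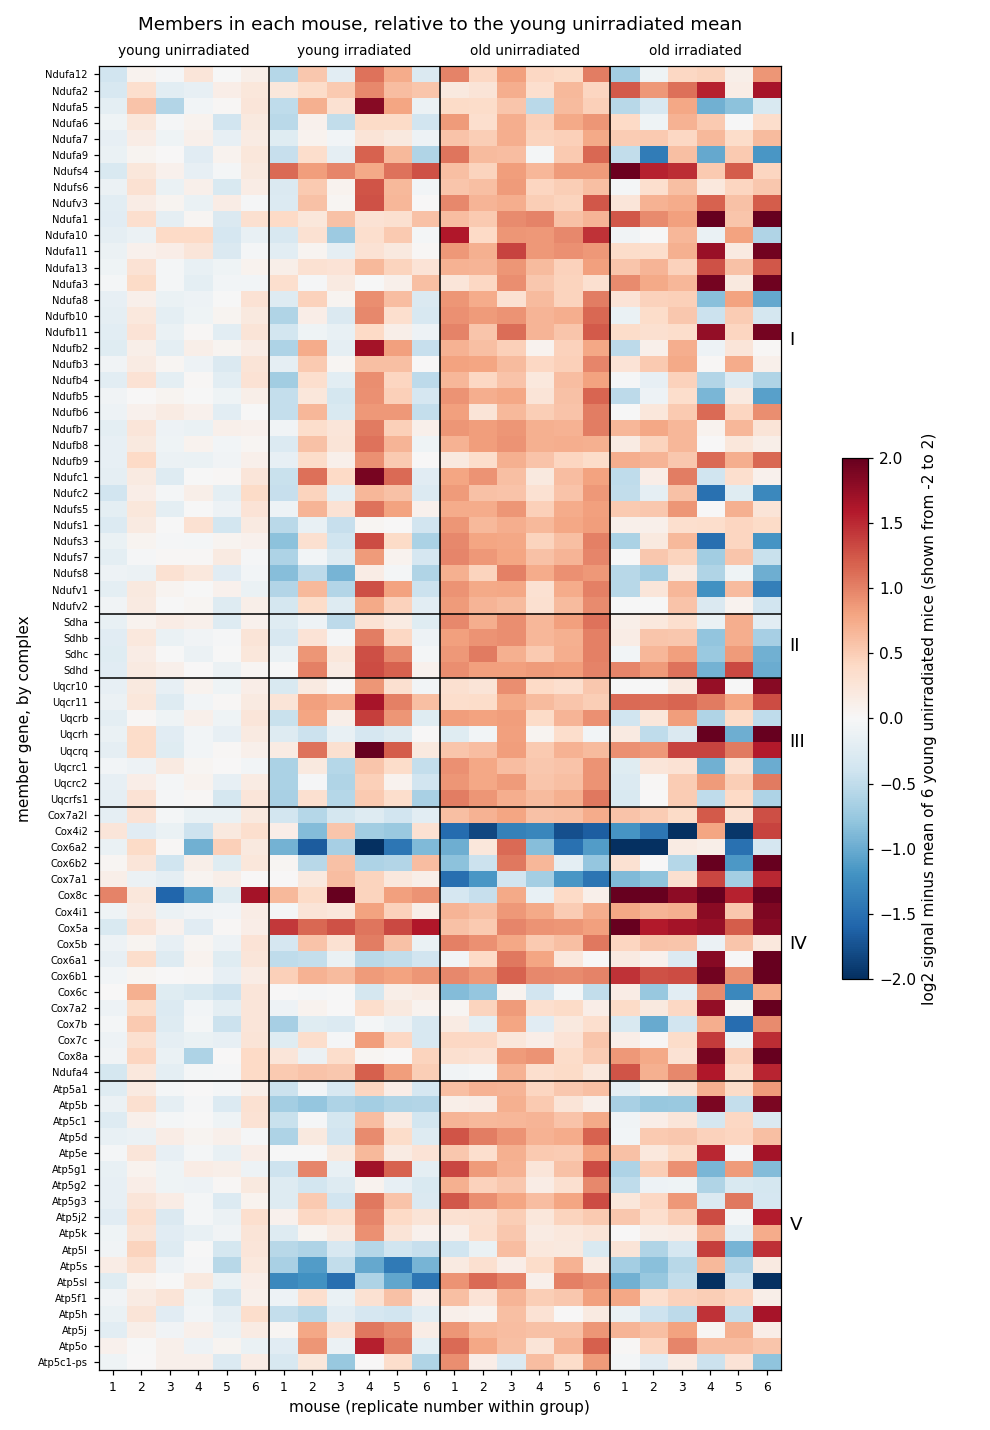
Log2 signal of the measured subunit genes, apart from 1 not shown, in each of the 24 mice, as the difference from the mean of the 6 young unirradiated mice. Rows are genes grouped by complex I to V, columns are mice, red is higher and blue is lower, and colours stop at -2 and 2. Most genes of old unirradiated mice are red, young irradiated mouse 4 is red in complex I and II, and old irradiated mice 4 and 6 are red in complex IV and blue in complex II.

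In young mice, irradiation was followed by rises in a few subunits of complexes I, III and IV and by falls in Atp5b and in genes outside the core of the complexes. Of the 84 genes, 9 were called (5 higher, 4 lower), which is 15.5% of the 58 that were tested, beside 35.8% of all genes tested. Of all genes, 14.4% were called higher and 21.4% lower. The median difference was 0.14 over the subunit genes tested and -0.20 over all genes tested, and 56 of the 82 measured genes had a positive difference. Without the 1.5-fold filter these medians were 0.17 and -0.18. Without that filter complex I was at 0.19, complex II at 0.37 and complex III at 0.04. Complex IV was then at 0.16 and complex V at -0.01. Over the genes tested the median difference was 0.14 for complex I, 0.37 for complex II, 0.16 for complex III, 0.27 for complex IV and -0.18 for complex V. The complex V median was the value of the pseudogene Atp5c1-ps, in a set that also holds Atp5s and Atp5sl. Of the ATP synthase subunits tested, Atp5b and Atp5l had lower mean levels in irradiated mice. Atp5d, Atp5g1, Atp5g3 and Atp5o had higher mean levels, so the negative median is not a fall of the subunits as a set. The medians of complexes II and IV stayed positive and that of complex V negative under 4 other scalings, whereas those of complexes I and III turned slightly negative with quantile normalization (-0.06 and -0.05) and in the deposited log2 values (-0.11 and -0.07). Cox5a, Ndufs4, Cox6a2 and Atp5sl were called under all 4 of these scalings. The genes tested were selected anew under each scaling, so the complex medians need not be over the same genes.

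Cox5a, a subunit bound to the catalytic core of cytochrome c oxidase, rose the most. The level was 8.21, 8.57 and 8.79 (lowest, median and highest of 6 mice) in young unirradiated and 9.58, 9.81 and 10.11 in young irradiated mice. The groups did not overlap, and the log2 difference was 1.31 (SE 0.15, 2.47-fold, adjusted p = 2.65e-05). Ndufs4, an accessory subunit that stabilises the NADH-binding arm of complex I, had levels of 5.95, 6.28 and 6.47 against 7.01, 7.28 and 7.53. Its log2 difference was 1.01 (SE 0.14, 2.01-fold, adjusted p = 0.00014), with the irradiated mice all above the unirradiated mice.

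Uqcr11, the smallest accessory subunit of complex III, had levels of 7.26, 7.51 and 7.76 in unirradiated and 7.79, 8.30 and 9.18 in irradiated mice, and rose by 0.85 (SE 0.21, adjusted p = 0.00474). Cox6b1, which bridges the monomers of the cytochrome c oxidase dimer, rose by 0.73 (SE 0.12, adjusted p = 0.000402), from 4.87, 5.05 and 5.18 to 5.51, 5.79 and 5.92. Ndufa4 rose by 0.69 (SE 0.17, adjusted p = 0.0052), from 6.63, 6.96 and 7.39 to 7.49, 7.54 and 8.19. These rises were present in each of the 6 irradiated mice, and the groups of each gene did not overlap. Groups did not overlap in 25% of all genes tested.

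Cox6a2, the heart and skeletal muscle isoform of a regulatory subunit of complex IV, fell by 1.32 (SE 0.31, adjusted p = 0.00338). Its levels of 1.56, 2.62 and 2.99 against 0.21, 1.32 and 1.85 overlapped. Atp5b, the catalytic beta subunit of ATP synthase, fell by 0.66 (SE 0.14, 1.57-fold lower, adjusted p = 0.00188), from 9.71, 9.91 and 10.30 to 9.21, 9.34 and 9.41, and the groups did not overlap. Its partner Atp5a1, the alpha subunit, was 7.62 ± 0.15 (SD, n = 6) in unirradiated and 7.52 ± 0.33 (SD, n = 6) in irradiated young mice.

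Atp5sl, which despite its name takes part in complex I assembly, fell by 1.18 (SE 0.17, adjusted p = 0.000121), from 5.05, 5.33 and 5.49 to 3.80, 4.05 and 4.68, with no overlap. Atp5s, a coupling-factor-like gene, fell by 0.94 (SE 0.19, adjusted p = 0.00153), and its levels of -0.45, 0.15 and 0.41 against -1.32, -0.88 and -0.39 overlapped narrowly.

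The catalytic core of complex I was not among the calls in young mice. The log2 difference was 0.19 (SE 0.32) for Ndufv1, which binds NADH, -0.25 (SE 0.17) for Ndufs1 and -0.06 (SE 0.21) for Ndufs7, both iron-sulfur subunits. Over the accessory subunits tested the median difference was 0.20. Complex II showed a wide spread between irradiated mice. Sdhd, a membrane anchor, was 5.06, 5.32 and 5.47 in unirradiated and 5.28, 5.88 and 6.59 in irradiated mice, and its difference of 0.62 (SE 0.24) had an adjusted p of 0.0522 in limma's test. Sdhc, the other anchor, differed by 0.53 (SE 0.24, adjusted p = 0.0882).

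Mouse by mouse, the complex I median was -0.36, 0.35, -0.17, 0.91, 0.52 and -0.20 in young irradiated mice 1 to 6, relative to the young unirradiated mean, and the complex II median was -0.19, 0.58, 0.06, 1.15, 0.69 and -0.07. In both, and in complexes III and V, the 3 mice with the high hepatocyte signal (2, 4 and 5) held the highest values. Complex IV had the narrowest range, from 0.00 to 0.35. Without its tissue isoforms complex IV ranged from -0.07 to 0.58, and mice 2, 4 and 5 were highest there too. Without these 3 arrays, an alternative chosen after seeing the data, 11 genes were called (3 higher, 8 lower; 33.3% of all genes), and the median of the subunits tested minus that of all genes went from 0.34 to -0.21. Cox5a (1.43), Ndufs4 (1.13), Cox6b1 (0.67), Atp5sl (-1.41) and Atp5b (-0.63) stayed called. Ndufv1 was then lower by 0.53 and was called, as were Uqcrc1 (-0.56), Uqcrc2 (-0.54) and Uqcrfs1 (-0.62), while Uqcr11, Ndufa4, Cox6a2 and Atp5s were no longer called.

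**Figure D2:**
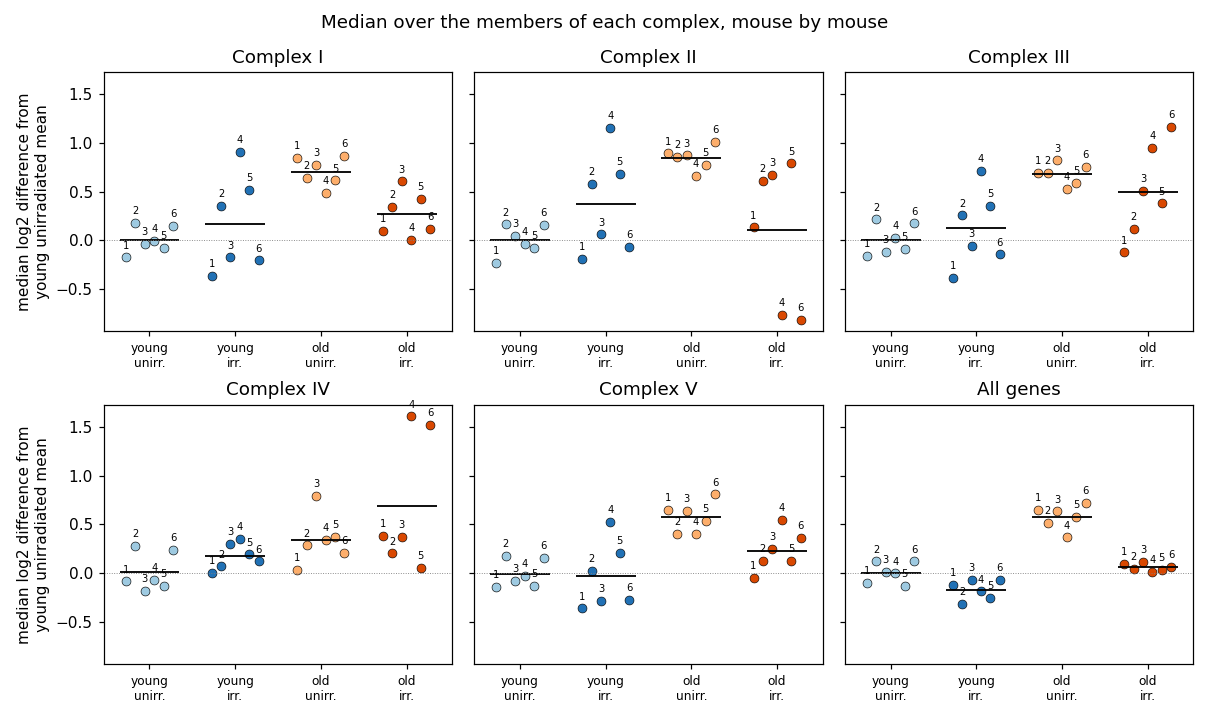
Median over the measured genes of complex I to V and of all genes in each mouse, as log2 difference from the young unirradiated mean. Points are mice with their replicate number and bars are the group mean. Young irradiated mice 2, 4 and 5 lie highest of their group in complexes I, II, III and V. Old irradiated mice 4 and 6 lie lowest in complex II (-0.76 and -0.81) and highest in complex IV (1.61 and 1.52).

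In old mice, Ndufs8 of complex I and Atp5sl fell after irradiation and Cox5a of complex IV rose. Ndufc2, Ndufb5 and Uqcrfs1 were also called lower, but these calls were lost in 11, 8 and 9 of the 12 fits that leave out 1 array, and all 3 in the deposited log2 values, within the slide that holds both groups and with replicate number as a block. The call of Cox5a was lost in 0 of the 12 fits. It was lost in the deposited log2 values, within the slide, with the replicate block and with quantile normalization. The fit within the slide used only 4 arrays, so a call lost there may reflect its small size. Of the 84 genes, 7 were called (2 higher, 5 lower), which is 12.1% of the 58 that were tested, beside 25% of all genes tested (7.6% higher, 17.4% lower). The median difference was -0.48 over the subunit genes tested and -0.25 over all genes tested, and 30 of the 82 measured genes had a positive difference. Without the 1.5-fold filter these medians were -0.26 and -0.24. Without that filter complex I was at -0.47, complex II at -0.70 and complex III at -0.08. Complex IV was then at 0.44 and complex V at -0.24. Over the genes tested the median was -0.59 for complex I, -0.70 for complex II, -0.54 for complex III, 0.54 for complex IV and -0.61 for complex V. Complexes I, II and V stayed negative and complex IV positive under the 4 other scalings, whereas complex III was positive when scaled to the 75th percentile (0.84), to the median of bright probes (0.34) and in the deposited log2 values (0.11). Atp5sl, Cox8c and Ndufs8 were called under all 4 of these scalings. The genes tested were selected anew under each scaling, so the complex medians need not be over the same genes. Over all alternatives that tested them, Uqcrfs1 stayed at or below -0.27 and Uqcrc1 at or below -0.27, while Uqcrc2 ranged from -0.87 to 0.29.

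Ndufs8, an iron-sulfur subunit of the complex I core, had levels of 4.90, 5.25 and 5.45 in old unirradiated and 3.48, 3.88 and 4.62 in old irradiated mice. The groups did not overlap, and the log2 difference was -1.23 (SE 0.24, 2.35-fold lower, adjusted p = 0.00282). Ndufc2, a membrane-arm subunit, fell by 1.14 (SE 0.33, adjusted p = 0.0183), with levels of 5.79, 6.06 and 6.34 against 3.99, 5.11 and 6.07. Ndufb5, another membrane-arm subunit, fell by 1.09 (SE 0.30, adjusted p = 0.0133), from 6.03, 6.53 and 6.94 to 4.68, 5.46 and 6.12. The groups of Ndufc2 and of Ndufb5 overlapped at their edges, and the 4 probes of Ndufb5 gave differences from -1.38 to 0.96, so its fall depends on the probe.

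The other core subunits of complex I had negative differences as well, giving 7 of 7. Ndufv1 differed by -1.01 (SE 0.38, adjusted p = 0.0519), Ndufs7 by -0.75 (SE 0.27, adjusted p = 0.0451) and Ndufs1 by -0.47 (SE 0.19, adjusted p = 0.0739). Of these, Ndufs8 alone met both thresholds.

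Uqcrfs1, the Rieske iron-sulfur protein of complex III, fell by 0.92 (SE 0.25, adjusted p = 0.0139). Its levels were 6.27, 6.44 and 6.69 in unirradiated and 5.03, 5.49 and 6.15 in irradiated old mice, without overlap, as in 22.7% of all genes tested. Uqcrc1, a core protein of complex III, was 5.85 ± 0.16 against 4.90 ± 0.61 (SD, n = 6 each), and its difference of -0.95 (SE 0.29) had an adjusted p of 0.0217 in limma's test but an unadjusted p of 0.00565, above the threshold. Uqcrc2 was 6.85 ± 0.15 against 6.53 ± 0.49 (SD, n = 6 each).

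Atp5sl fell by 2.10 (SE 0.40, 4.29-fold lower, adjusted p = 0.00238), from 5.40, 6.27 and 6.43 to 2.65, 4.44 and 4.87, with no overlap. It was called lower at both ages. Atp5b, called in young mice, was 10.09, 10.20 and 10.70 in unirradiated and 9.23, 9.42 and 11.87 in irradiated old mice, with mice 4 and 6 at the top.

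Cox8c, a testis-type isoform of the smallest class of complex IV subunits, was higher in old irradiated mice. The probe was dim: it was well above background in 4 of the 6 old irradiated arrays and in 0 of the other 18 arrays. It was tested because its signal was positive and significant by the weaker criterion of the filter, and with probes required to be well above background on all arrays of a group it was not tested. Levels were -2.71, -2.27 and -1.49 against -0.70, 0.00 and 0.67, and the difference counts as at least 1.74-fold, against the lowest signal that is well above background (adjusted p = 0.000519 in the limma fit). Cox5a rose by 0.92 (SE 0.22, 1.89-fold, adjusted p = 0.00745), from 9.03, 9.36 and 9.48 to 9.73, 10.22 and 10.67, with the groups apart. It was called higher at both ages, in 6 of 6 irradiated mice each time.

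Old irradiated mice 4 and 6 showed a split that ran within complexes. Relative to the young unirradiated mean, 38 of the 82 genes were more than 0.5 higher in both of them and 17 more than 0.5 lower in both, that is 46.3% and 20.7%, against 35.3% and 32.5% of all genes measured. Counted singly, 41 genes were more than 0.5 higher in mouse 4 and 41 in mouse 6, against 23 to 45 in the other old irradiated and 40 to 73 in old unirradiated mice. More than 0.5 lower were 20 and 19, against 5 to 16 in the other old irradiated mice. Complex IV had 15 of 17 genes higher in both and 0 lower, whereas complex II had 0 of 4 higher and 3 lower. Complex I had 10 of 35 higher and 9 lower, complex III had 5 of 8 higher and 3 lower, and complex V had 8 of 18 higher and 2 lower. The standard deviation over the subunit genes was 1.14 in mouse 4 and 1.18 in mouse 6, against 0.58 to 0.75 in the other mice of the group.

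The high genes of these mice included Ndufa1 (2.54 in mouse 4 and 2.70 in mouse 6), Uqcrh (2.14 and 2.26), Atp5b (1.88 and 1.88), Cox6a1 (1.81 and 2.11) and Cox4i1 (1.81 and 1.87). The low genes included Ndufc2 (-1.49 and -1.28), Ndufv1 (-1.21 and -1.37) and Uqcrc1 (-0.96 and -0.99). In complex I the low genes were catalytic or core subunits as well as accessory ones, and the high genes named here are accessory. The same 2 mice had the highest erythroid markers of the group, as given above, and the part of those cells in the split was not tested.

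Without mice 4 and 6, also chosen after seeing the data, 9 genes were called (3 higher, 6 lower; 34.7% of all genes). Cox5a (0.88), Cox8c, Atp5sl (-1.51), Ndufs8 (-1.07) and Uqcrfs1 stayed called, Atp5b was then lower by 0.97 and was called, and Ndufb5 and Ndufc2 were not. The median over the complex IV genes tested went from 0.54 to -0.11, and that over complex I from -0.59 to -0.49. Without old irradiated mice 2, 3 and 5, the mice with the high hepatocyte signal, 28 genes were called (7 higher, 21 lower; 40.5% of all genes), and 2 of the 3 irradiated mice left were mice 4 and 6.

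**Figure D3:**
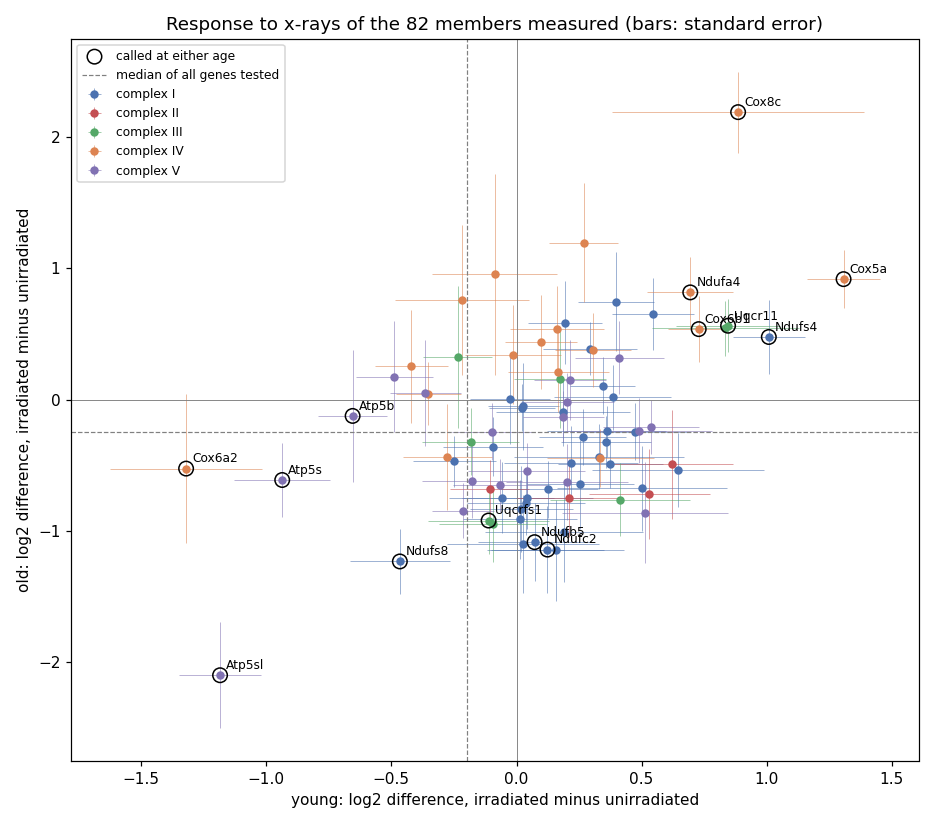
Response to irradiation of the 82 measured genes in young mice (horizontal) and old mice (vertical), as log2 difference of irradiated minus unirradiated mice with standard errors as bars. Colours are complexes, rings mark genes called at either age and dashed lines are the median of all genes tested. Cox5a lies high and Atp5sl low on both axes, the dim Cox8c at the top rests on signals mostly not well above background, and most complex I genes lie near 0 on the young axis and below 0 on the old axis.

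Whether irradiation acted differently at the 2 ages was tested in a model of all 24 arrays. No subunit gene was called (0 of 84), and 0% of all genes tested were called by limma, with 0.0598 as the lowest adjusted p of any gene. At an unadjusted p under 0.05 there were 26 of the 58 subunit genes tested (44.8%), against 23.6% of all genes tested. They were 14 genes of complex I, all 4 of complex II, 3 of complex III, 2 of complex IV and 3 of complex V. The difference was negative, that is lower in old than in young mice, for every one of these genes except the dim Cox8c. Without the 6 hepatocyte-high arrays 12 subunit genes were called (20.7% of all genes), and the median of the subunits tested minus that of all genes went from -0.35 to 0.10. In the model of all 24 arrays the difference was -1.16 (SE 0.37, adjusted p = 0.128) for Ndufb5 and -1.27 (SE 0.40, adjusted p = 0.128) for Ndufc2. In the same model it was -1.17 (SE 0.40, adjusted p = 0.13) for Uqcrb and -1.25 (SE 0.42, adjusted p = 0.131) for Sdhc.

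Complex II gave the largest median difference between the responses, at -1.04, followed over the genes tested by complex I at -0.77, complex V at -0.59 and complex III at -0.55, whereas complex IV was at 0.36. Without its tissue isoforms complex IV was at -0.04. Over all measured genes, complex I was at -0.70, complex III at -0.29 and complex V at -0.38, with complexes II and IV unchanged. Complexes I and II stayed negative and complex IV positive under the 4 other scalings, complex V turned positive when scaled to the 75th percentile or to bright probes (0.62 each), and complex III was at 0.01 under both of these and at 0.13 in the deposited log2 values. Here too the genes tested need not be the same under each scaling. Under median scaling the median over all genes tested was -0.24. Sdha, the flavoprotein of succinate dehydrogenase, had a median level of 6.12 in young unirradiated, 5.87 in young irradiated, 6.92 in old unirradiated and 6.20 in old irradiated mice. Sdhb, the iron-sulfur subunit, had medians of 7.22, 7.39, 8.13 and 7.62. Sdhc had 4.48, 5.05, 5.29 and 4.80, and Sdhd 5.32, 5.88, 6.13 and 6.21, each in the same order of groups. Sdhd ranged widely in old irradiated mice, from 4.30 to 6.60, with mice 4 and 6 at the bottom.

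The difference between the ages at rest moved with the scaling of the arrays. In unirradiated mice 46 of the 84 genes were called (44 higher and 2 lower in old mice), which is 79.3% of the 58 that were tested, beside 63.8% of all genes tested (48.3% higher, 15.5% lower). The median difference was 0.72 over the subunit genes tested and 0.63 over all genes tested, so the subunits lay close to the shift of the array as a whole. Scaled to the 75th percentile of each array, 5 genes were called (2 higher, 3 lower). With the median over probes above background on all arrays or with quantile normalization, 3 genes were called, each of them lower in old mice. In the log2 values that the authors deposited, which held 52 of the 84 genes, 11 genes were called, of which 1 was higher and 10 were lower. The shares of all genes called under these other scalings are not given here. These counts are therefore not set against the array as a whole.

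**Figure D4:**
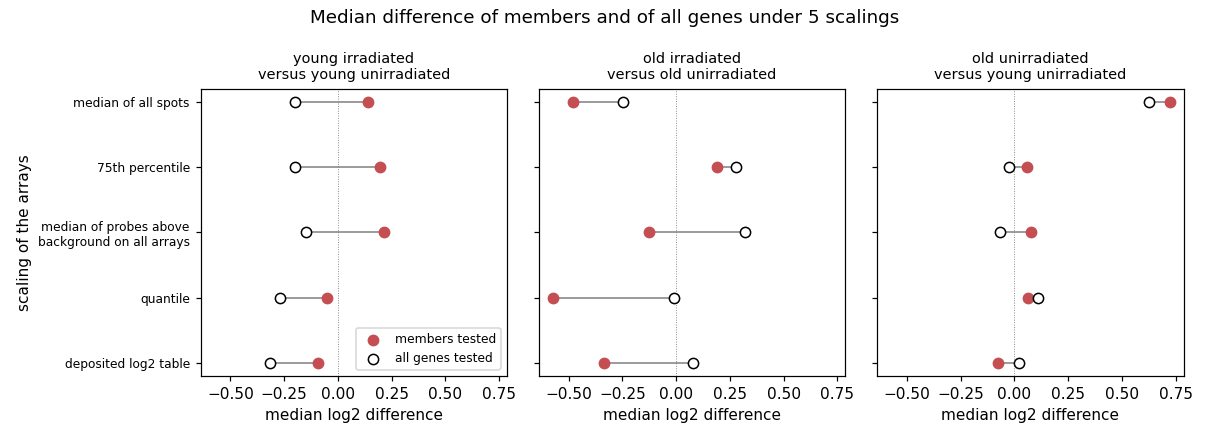
Median log2 difference over the subunit genes tested (filled circles) and over all genes tested (open circles) in 3 comparisons, for 5 ways of scaling the arrays from top to bottom. In the comparison of ages the median of all genes moves from 0.63 under median scaling to near 0 under the other scalings, and the subunit genes move with it.

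Cox4i2 and Cox7a1 were lower in old mice and stayed called under all 4 other scalings. Cox4i2, the lung isoform of the regulatory subunit IV of complex IV, had levels of 3.36, 3.80 and 4.11 in young and 1.95, 2.18 and 2.47 in old unirradiated mice, a log2 difference of -1.57 (SE 0.16, adjusted p = 6.4e-06). Cox7a1, the heart and skeletal muscle isoform of subunit VIIa, had levels of 2.81, 3.03 and 3.11 against 1.48, 1.83 and 2.60, a difference of -1.06 (SE 0.19, adjusted p = 0.000249). Neither gene overlapped between the ages, where groups did not overlap in 48.6% of all genes tested. In irradiated mice the ranges of old mice were wide, from 1.37 to 5.13 for Cox4i2 and from 2.11 to 4.51 for Cox7a1. Blood came by cardiac puncture, and of 18 heart and skeletal muscle markers 4 to 10 were well above background in a young and 4 to 8 in an old unirradiated mouse. Their summed log2 level was 5.79 to 6.74 in young and 4.23 to 4.94 in old unirradiated mice, without overlap, while 1 of 10 tested was called higher and 1 lower. The part of muscle RNA in the isoform values was not tested.

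The ubiquitous partners of these isoforms had positive differences between the ages. Cox4i1 was 8.66 ± 0.13 in young and 9.35 ± 0.13 in old unirradiated mice, Cox7a2 7.21 ± 0.25 and 7.57 ± 0.29, and Cox7a2l, which helps join complexes III and IV into supercomplexes, differed by 0.67 (all SD, n = 6). Under median scaling the largest called rises were Ndufa10 (1.02), an accessory subunit of complex I, Cox6b1 (0.99) and Atp5d (0.97), the delta subunit of ATP synthase. The directions of these rises are those of median scaling.

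Among irradiated mice, Cox7a2l was the single gene called between the ages, 1 of the 58 tested (1.72%), beside 2% of all genes tested (1.4% higher, 0.601% lower). Its levels were 8.58, 8.79 and 8.95 in young and 9.47, 9.68 and 10.45 in old irradiated mice, without overlap, and the log2 difference was 1.07 (SE 0.25, adjusted p = 0.0464). Groups did not overlap in 5.07% of all genes tested. The call was lost when any 1 array was left out.

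When the 24 genes that varied little were tested too, without the 1.5-fold filter, few calls were added outside the comparison of unirradiated mice. In young mice the 9 called genes were the same (5 higher, 4 lower), beside 34.2% of all 18729 genes (13.8% higher, 20.4% lower). In old mice 9 were called (2 higher, 7 lower), the added genes being Atp5g2, a c-ring gene, and Uqcrc1, beside 24.4% of all genes (7.32% higher, 17.1% lower). Between unirradiated old and young mice 59 were called (57 higher, 2 lower), beside 63.1% (48.5% higher, 14.7% lower), with Atp5a1 and Atp5c1 of the ATP synthase catalytic head among the 13 added. Between irradiated mice Cox7a2l was again the single gene, beside 2.27% (1.67% higher, 0.603% lower), and the interaction gave 0 genes, with 0% of all genes.

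Of the remaining isoform sets, Cox6a1, the ubiquitous partner of Cox6a2, was 11.33 ± 0.26, 10.91 ± 0.15, 11.73 ± 0.44 and 11.98 ± 1.03 in young unirradiated, young irradiated, old unirradiated and old irradiated mice. Cox6b2, the testis isoform of Cox6b1, was 6.09 ± 0.26, 6.01 ± 0.59, 6.01 ± 0.78 and 6.97 ± 1.97. Cox7b was 8.72 ± 0.34, 8.45 ± 0.21, 8.90 ± 0.37 and 8.46 ± 0.96. Cox8a, the ubiquitous partner of Cox8c, was 10.15 ± 0.39, 10.32 ± 0.22, 10.69 ± 0.27 and 11.22 ± 0.77. The spread was widest in old irradiated mice for each of these 4 genes. The c-ring genes of ATP synthase encode the same mature protein: Atp5g1 was 6.82 ± 0.13, 7.34 ± 0.87, 7.66 ± 0.43 and 6.80 ± 0.87, Atp5g2 9.03 ± 0.14, 8.82 ± 0.15, 9.56 ± 0.29 and 8.71 ± 0.21, and Atp5g3 7.29 ± 0.19, 7.49 ± 0.59, 8.24 ± 0.27 and 7.61 ± 0.58 (SD, n = 6). The remaining core genes had levels of 6.14 ± 0.15, 6.33 ± 0.82, 6.88 ± 0.24 and 5.87 ± 0.91 for Ndufv1 and 6.74 ± 0.16, 7.07 ± 0.50, 7.55 ± 0.22 and 7.11 ± 0.28 for Cox5b.

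Among genes of related pathways, the assembly factors of the respiratory complexes, which build them but are no part of them, are described first. Of all genes tested, 14.4% were called higher and 21.4% lower in young mice, and 7.6% higher and 17.4% lower in old mice. Of 41 assembly factors measured and 35 tested, 0 were called higher and 12 lower after irradiation in old mice (median -0.81), and 4 higher and 1 lower in young mice (median -0.03). Ndufaf4, an assembly factor of complex I, fell by 1.51 (SE 0.37) in old mice, and Cox10, which makes heme for complex IV, fell by 1.46. In young mice Coa5, an assembly factor of complex IV, rose by 1.34 (SE 0.34, adjusted p = 0.00562).

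Of 12 regulators of mitochondrial biogenesis measured and 11 tested, 4 were called lower in young mice (median -0.33) and 5 in old mice (median -0.99). At both ages 0 were called higher. Of all genes tested, 21.4% were called lower in young and 17.4% in old mice. Tfam, which packages and transcribes mitochondrial DNA, fell by 1.25 (SE 0.20, adjusted p = 0.000274) in young and by 1.90 (SE 0.33, adjusted p = 0.00138) in old mice. Ppargc1a, a coactivator of mitochondrial genes, fell by 1.76 in old mice. Of 13 genes of the citric acid cycle measured and 9 tested, 0 were called in young and 5 were called lower in old mice (median -0.91), with Fh1 at -1.99, Idh3a at -1.48 and Cs, citrate synthase, at -1.31. Of 10 other nuclear genes of the electron transport chain measured and 7 tested, 1 was called in young mice, Etfb, which carries electrons from fatty acid oxidation and rose by 1.21 (SE 0.32), and 0 in old mice.

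The subunits encoded by mitochondrial DNA numbered 10, with 9 tested, and had 0 called in young mice (median 0.54) and 1 called lower in old mice, ND1, which fell by 1.14 (SE 0.32, adjusted p = 0.0149). Their median was 1.15, 1.80 and 1.06 above the young unirradiated mean in young irradiated mice 2, 4 and 5, the mice with the high hepatocyte signal, and -0.54, -0.05 and -0.23 in mice 1, 3 and 6. The nuclear subunits of complexes I, II, III and V were likewise highest in mice 2, 4 and 5. Those of complex IV were not when its tissue isoforms were included. Without the isoforms the complex IV median was also highest in mice 2, 4 and 5, at 0.17, 0.58 and 0.30. Among old irradiated mice, complexes I and II were highest in mice 2, 3 and 5, which also had the high hepatocyte signal. Complexes III, IV and V were highest in old irradiated mice 4 and 6.

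Several lists of cell type markers moved at the same time. Of all genes tested, 14.4% were called higher and 21.4% lower in young mice, against 7.6% and 17.4% in old mice. Of 9 B cell markers, 9 were called lower in young (median -2.47) and 8 in old mice (median -3.80). All 8 platelet markers were called higher at both ages, and all 8 tissue macrophage markers in young mice. Of 10 T cell markers, 7 were called lower in young mice and 1 in old mice, and of 10 neutrophil markers, 4 were called higher in young mice. Of 7 monocyte markers 4 were called higher and 1 lower in young mice and 2 lower in old mice, of 8 erythroid markers 4 were called lower in young mice, and of 6 natural killer cell markers 3 were called higher in young mice. The 7 hepatocyte markers tested were all called higher in old mice and 0 in young mice (median 2.98). The part of these cells in the subunit values was not tested.

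**Figure D5:**
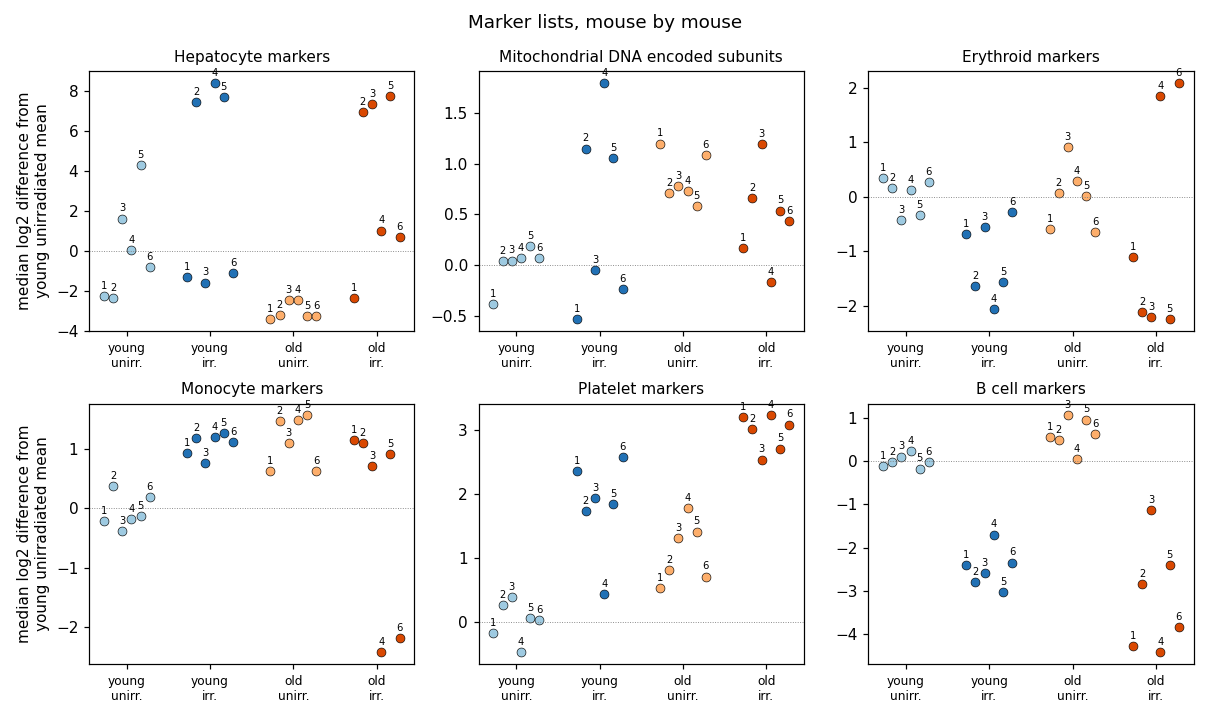
Median over the genes of 6 lists in each mouse, as log2 difference from the young unirradiated mean: hepatocyte markers, subunits encoded by mitochondrial DNA, and erythroid, monocyte, platelet and B cell markers. Points are mice with their replicate number. Young irradiated mice 2, 4 and 5 are high for hepatocyte markers and for mitochondrial DNA, and old irradiated mice 4 and 6 are high for erythroid and low for monocyte markers.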

How the data were processed

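The intensity values were deposited by the authors as 1 scanner file per array, written by Agilent Feature Extraction 12.0.2 as a processed signal that is background-subtracted and not scaled between arrays. The log2 values in the table the authors deposited had been filtered and normalized and were used as an alternative, where 52 of the 84 genes were present. Each sample was labelled as a mouse of its own group and replicate number, and p-values measure the spread between these samples.

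Log2 of the processed signal was taken, and the median over spots that are not controls was subtracted per array, as the methods state median normalization. Of 39429 probes, 24121 passed the filter on spot flags, which drops a probe whose spot was uneven or lacked a significant positive signal in 25% or more of the arrays. The flag for a positive signal is weaker than the one for well above background. A gene was represented by its brightest probe (18729 genes), and 17464 genes differed from their median by 1.5-fold in at least 20% of arrays. Comparisons of 12 arrays, and the interaction over 24 arrays, used limma 3.58.1 (R 4.3.3, data.table version 1.17.8; Python 3.11.15, NumPy 2.4.6, pandas 2.3.3, Matplotlib 3.10.9). Scripts were tested on simulated data. The number of arrays limits the precision.

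The genes, lists and tests were chosen with earlier results of these data known. Named were the catalytic or core subunits, isoform sets, per comparison the 3 largest called rises and falls, and of each related list up to 3 called genes with the largest change. Of the genes this rule selects, 1 is not reported here. Genes that stand out in single mice or in the interaction were named after their values were seen. Alternatives were other scalings (75th percentile, median of the probes well above background on all arrays, quantile), normexp with an offset of 50, the log2 values as deposited, other filters, the mean of a gene's probes, the methods' random variance test, a joint fit of 24 arrays, a block for slide or for replicate number, values within the slide that holds both groups, and leaving out each array. Added after seeing the data were leaving out old irradiated mice 4 and 6, leaving out the 6 irradiated arrays with a high hepatocyte marker level, and normexp with the lowest spots raised to the 0.1st percentile.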

Additional observations from a re-analysis of the deposited data

Results flagged for a closer look

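Of 160 groups of 6 mice examined, 3 held a mouse far from the other 5 by Dixon's criterion, where chance gives about 1 in 20 groups. Atp5d in old irradiated mice had a gap ratio of 0.740, with mouse 1 at 5.90 and the others between 6.38 and 6.55. Atp5sl in old unirradiated mice had a ratio of 0.772, with mouse 4 at 5.40 and the others between 6.19 and 6.43. Cox8c in young irradiated mice had a ratio of 0.704, with mouse 3 at -0.13 and the others between -1.86 and -1.35.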

How the results depend on the processing

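The signal over background limits dim genes such as Cox8c, and age cannot be told apart from slide and scanning day. Irradiation can be told apart from slide only within the slides that hold both groups. The causes of the changes below were not tested, except that normexp left 3 arrays (young unirradiated 5, old unirradiated 5 and 6) with medians of 9.37 to 9.96 against 6.15 to 7.01 on the others. With it 0 subunit genes were called in young, old and resting mice and between irradiated mice, and the median of the subunits tested minus that of all genes was 0.10 in old mice. With the lowest spots raised, 4, 2, 18 and 0 genes were called in these comparisons. Counts in this section are given without the share of all genes called in the same setting. Those within the slide rest on 4 arrays at each age.

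In young mice, 9 genes were called, 5 in the deposited table, 17 with slide as a random block, 0 within the slide that holds both groups and 9 to 10 without 1 array. The median minus that of all genes was 0.34, 0.19 to 0.48 without 1 array, and -0.21 without the hepatocyte-high arrays.

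In old mice, 7 genes were called, 3 in the deposited table, 16 in 1 fit of 24 arrays, 3 within the slide, 28 without the hepatocyte-high arrays and 4 (without unirradiated mouse 1) to 13 (without irradiated mouse 3) without 1 array. The median minus that of all genes was -0.23, -0.45 with bright probes, -0.57 with quantile normalization, -0.022 without the 1.5-fold filter, -0.58 within the slide, and -0.33 to -0.12 without 1 array.

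At rest, 46 genes were called between the ages, 5 with the 75th percentile, 3 with bright probes, 3 with quantile normalization, 11 in the deposited table, 24 in 1 fit and 43 to 46 without 1 array. The median minus that of all genes was 0.10, -0.049 with quantile normalization, -0.10 in the deposited table, 0.43 without the filter on dim probes, and 0.08 to 0.11 without 1 array. Between irradiated mice, the 1 call became 0 with the 75th percentile, bright probes, quantile normalization, the deposited table, no dim filter, without the hepatocyte-high arrays or without any 1 array (0 to 0), and 8 in 1 fit, 2 with slide as a random block and 2 without old irradiated mice 4 and 6, with a median minus that of all genes of -0.16 (-0.25 to -0.05 without 1 array).

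For the interaction, 0 genes became 12 without the hepatocyte-high arrays and 0 to 4 without 1 array, 4 being without old irradiated mouse 3 (Ndufa9, Ndufb5, Ndufc2 and Uqcrb). The median minus that of all genes was -0.35 (-0.44 to -0.23), and 0.10 without the hepatocyte-high arrays.

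Signs turned for Ndufv1 in young mice without the hepatocyte-high arrays (-0.53), for Ndufb5 in old mice in the deposited table (1.17), and between the ages at rest in that table for Ndufv1 (-0.019) and Uqcrc2 (-0.0032). Replicate numbers do not pair the samples: same-numbered mice deviated with correlations of -0.29 to 0.30 in young and -0.20 to 0.34 in old mice. With replicate number as a block, 8 genes were called in young, 3 in old, 41 in resting and 0 in irradiated mice.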

Other observations

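Genes around the respiratory chain also differed between unirradiated old and young mice under median scaling, where the median of all genes tested was 0.63 and 48.3% of all genes were called higher and 15.5% lower. These directions are those of median scaling. Of 41 assembly factors, 28 were called higher and 1 lower in old mice, the latter being Sco1, a copper chaperone of complex IV, with a log2 difference of -2.02. Ndufaf4 and Foxred1, assembly factors of complex I, were higher by 1.06 and 1.05. Scaled to the 75th percentile, 1 assembly factor was called higher and 3 lower, and in the deposited log2 values 0 higher and 5 lower. Of 13 genes of the citric acid cycle, 8 were called higher, with Idh3b at 0.97, Cs at 0.96 and Idh3a at 0.94. Of 10 subunits encoded by mitochondrial DNA, 8 were called higher, with ND5 at 1.17, ND6 at 1.13 and ND2 at 1.08. Among the regulators of mitochondrial biogenesis, 8 of 12 were called higher, with Ppargc1a at 1.28, Gabpb1 at 0.93 and Esrra at 0.91. Of the 10 other nuclear genes of the chain 5 were called higher, with Cyc1, the cytochrome c1 of complex III, at 0.98, Etfa at 0.93 and Etfdh at 0.91. Scaled to the 75th percentile, 0 genes of the citric acid cycle, 1 subunit encoded by mitochondrial DNA, 1 regulator and 1 other nuclear gene were called higher. Under median scaling 35 assembly factors, 9 genes of the citric acid cycle and 9 subunits encoded by mitochondrial DNA were tested. So were 11 regulators and 7 other nuclear genes.

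In young mice Uqcc1, an assembly factor of complex III, was higher after irradiation by 0.91 and Coa3, one of complex IV, by 0.88, while Gabpb2 was at -0.85 and Polrmt, the mitochondrial RNA polymerase, at -0.77, all of them called. In old mice Acad9, an assembly factor of complex I, was at -1.46 and Gabpb2 at -1.56, both called. Where 28 subunit genes had more than 1 probe past the filter, the median spread between the probes' differences was 0.13 in young and in old mice, and probes disagreed in sign for 7 and 6 genes.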
